A study of Mus musculus with 491 samples.

Results

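The S phase and mitosis genes are 36 genes that were chosen by name, 18 that work in DNA replication (the S phase genes) and 18 that work in G2 and mitosis. They are 36 of the 19494 genes with 1 usable symbol in the table, and each of the 36 was found in at least 5% of the cells, so that all of them entered the tests. A gene was counted as found in a cell when its FPKM, which scales fragments by the transcript's length and by the library, was at least 1. Levels are given as log2(FPKM + 1), a scale that understates the change of low genes.

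The data are 491 single tdTomato+ cells sorted from the otic vesicle and periotic tissue of Pax2-Cre/+;Ai14-tdTomato/+ mouse embryos at E10.5, and all cells share this genotype and stage. Cre is driven by the Pax2 transgene, and the reporter marks every cell that has had Cre and its descendants, so the sort holds several tissues besides the otic epithelium. Replicate 1 has 237 cells on 3 plates and replicate 2 has 254 cells on 3 plates. The labels do not say what a replicate stands for. The p-values measure only how far class means vary between these 2 sets of cells once a shift shared by all classes is taken out. This spread may be technical, and it was pooled over all 7 classes described next.

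No label gives a cell type, and the classes were rebuilt by clustering the cells on marker genes, none of which is among the 36. Of 7 classes 6 carry a name: otic epithelium-like (139 cells), early neuroblast-like (54), differentiating neuron-like (46), neural tube progenitor-like (129), surface ectoderm-like (38) and mesenchyme-like (23). The other, cluster 1 (62 cells), held the differentiating neuron markers in 66.7% and the epibranchial neuron markers in 62.9% of gene and cell pairs and kept its number. The named classes share markers too. Early neuroblast markers were held in 57.1% of pairs by early neuroblast-like cells and in 65.6% by differentiating neuron-like cells. For differentiating neuron markers the values were 44.7% and 86.7%. The clusters joined as neural tube progenitor-like held their own list in 54.5%, 43.1% and 24.4% of pairs. Endothelial markers (at least 4 of 7) were found together in 3 early neuroblast-like cells, macrophage markers (at least 4 of 6) in 1 otic epithelium-like cell and 3 neural tube progenitor-like cells, and all 4 erythroid markers in no cell. The cells had 2552 to 6403 genes found, with class medians from 4244 in neural tube progenitor-like to 5215 in mesenchyme-like cells, and depth in reads is unknown. Genes that every cell uses had class medians of 8.69 to 9.19 on the log2(FPKM + 1) scale. Rare transcripts were shared between wells more often than their frequencies gave for 18 of 276 pairs of plate positions, and 318 of the 491 cells had such a linked well as a source of the lower of both values, which was a median of 3.11% to 15% of the higher value across pairs. Results that move when these cells are left out or corrected are given both ways.

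A dividing cell first licenses its replication origins, then copies its DNA in S phase, and after G2 separates the copies in mitosis. In textbook accounts, E2F factors drive the S phase genes. The mitotic genes carry an element called CHR and CCAAT boxes bound by NF-Y; the DREAM complex represses them through CHR in resting cells, and its MuvB core with B-MYB and FOXM1 activates them later in the cycle. At the stage sampled here the otic epithelium is a growing epithelium from which neuroblasts depart and build the inner ear's ganglion, and neurons of that ganglion leave the cell cycle as they differentiate.

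Promoters of the 36 genes were read from RefSeq (GRCm38.p6, 250 bases before to 50 bases after the start), which gave 30 of them. The entries held no Mcm4, Gins2, Ccne2, Ccna2, Aurkb or Tpx2, and the first listed start was used for Mcm7 and Uhrf1, which have 2. Both strands were searched for 3 motifs, the E2F site (TTTCCCGC, TTTCGCGC, TTTGGCGC or TTTGCCGC), the CHR element (TTTGAA or TTCGAA, the second of which is its own reverse complement) and the CCAAT box (CCAAT). An E2F site was present in 6 of 15 S phase promoters (in Cdc6, Cdt1, Mcm3, Mcm5, Mcm6 and Mcm7) and in 1 of 15 mitotic promoters (Cdk1), against 2.32% of 27025 promoters of all genes. A CHR element was present in 3 of 15 S phase promoters and 11 of 15 mitotic promoters, against 19.4% of all promoters. A CCAAT box was present in 10 of 15 and 13 of 15, against 37.9%, and both a CHR element and a CCAAT box in 3 of 15 and 11 of 15, against 7.70%. A match is a description of these letters and not a bound site. The 6 promoters printed next cover the 200 bases before the start, 5′ to 3′ on the gene's strand, and were chosen for the motifs they hold: the S phase genes Mcm5, Mcm6 and Cdc6 are from the 6 with an E2F site, and the mitotic genes Cdk1, Cdc20 and Ube2c are from the 11 with a CHR element. Capitals mark every match of the 3 motifs on either strand. These are E2F sites and CCAAT boxes in Mcm5 and Mcm6, where overlapping E2F sites run together, an E2F site in Cdc6, all 3 motifs in Cdk1, and CHR elements and CCAAT boxes in Cdc20 and Ube2c. The starts are those of RefSeq, and GENCODE M21 places some genes otherwise. By GENCODE M21 the Cdc6 stretch lies inside the gene (chr11:98907801-98923940), and those of Cdk1, Cdc20 and Ube2c reach into their genes.
Mcm5, chr8:75109309-75109508, plus strand: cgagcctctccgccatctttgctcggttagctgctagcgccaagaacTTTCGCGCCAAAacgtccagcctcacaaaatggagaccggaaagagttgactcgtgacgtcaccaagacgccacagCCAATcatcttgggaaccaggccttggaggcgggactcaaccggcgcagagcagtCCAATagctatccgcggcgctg
Mcm6, chr1:128359706-128359905, minus strand: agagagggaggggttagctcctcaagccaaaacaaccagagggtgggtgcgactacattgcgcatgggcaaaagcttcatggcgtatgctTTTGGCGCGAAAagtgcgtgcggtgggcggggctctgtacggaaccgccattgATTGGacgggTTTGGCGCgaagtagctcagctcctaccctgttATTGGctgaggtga
Cdc6, chr11:98907951-98908150, plus strand: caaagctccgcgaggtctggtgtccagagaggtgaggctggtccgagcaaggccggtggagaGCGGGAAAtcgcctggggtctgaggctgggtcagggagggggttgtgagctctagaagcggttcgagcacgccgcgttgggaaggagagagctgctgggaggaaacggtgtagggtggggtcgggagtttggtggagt
Cdk1, chr10:69352913-69353112, minus strand: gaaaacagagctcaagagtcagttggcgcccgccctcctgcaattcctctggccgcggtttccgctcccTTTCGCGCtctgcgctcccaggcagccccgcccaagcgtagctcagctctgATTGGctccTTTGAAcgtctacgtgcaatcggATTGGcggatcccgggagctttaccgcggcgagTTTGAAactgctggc
Cdc20, chr4:118437344-118437543, minus strand: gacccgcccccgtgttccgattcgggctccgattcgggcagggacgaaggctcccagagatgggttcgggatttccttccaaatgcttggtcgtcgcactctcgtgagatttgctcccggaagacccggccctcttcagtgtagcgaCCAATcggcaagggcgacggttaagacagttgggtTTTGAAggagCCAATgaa
Ube2c, chr2:164769729-164769928, plus strand: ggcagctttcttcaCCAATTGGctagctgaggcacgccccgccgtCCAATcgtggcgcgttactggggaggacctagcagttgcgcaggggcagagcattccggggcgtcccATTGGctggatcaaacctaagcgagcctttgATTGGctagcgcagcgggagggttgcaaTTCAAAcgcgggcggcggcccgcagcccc

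The S phase genes were found in more cells than the mitotic genes. Mcm2 and Mcm7, subunits of the replicative helicase, were each found in 94.5% of the 491 cells, Pcna, the sliding clamp of DNA polymerases, in 92.3%, and Rrm1, the large subunit of ribonucleotide reductase, in 90.8%. At the other end stood Cdc6, which loads the helicase on origins (43.2%), Ccne2, an E-type cyclin (42.2%), and E2f8, a repressor of the E2F family (21.4%). The mitotic genes spanned a narrower range, from 76.8% for Birc5, a subunit of the chromosomal passenger complex, to 47.5% for Aurkb, its kinase. Where they were found, the levels reached furthest for Ube2c, the E2 enzyme of the anaphase-promoting complex, with a highest FPKM of 1752, and Ccnb1, a mitotic cyclin, with 1056.

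Counted per cell, a median of 14 of 18 S phase genes (range 1 to 18) and 12 of 18 mitotic genes (range 0 to 18) were found. No cell lacked all S phase genes, 26 cells lacked all mitotic genes, and 89 cells had all 18 mitotic genes. A cell was said to hold a programme when at least 9 of the 18 genes of a list were found. These classes are ranges of a count and not called phases: 25 cells stood at 8 or 9 S phase genes and 38 cells at 8 or 9 mitotic genes.

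By this count 413 of 491 cells (84.1%, 95% exact binomial interval 80.6 to 87.2) held the S programme and 319 (65.0%, 60.6 to 69.2) held the mitotic programme. Both programmes were held by 308 cells (62.7%), the S programme alone by 105 (21.4%), the mitotic programme alone by 11 (2.24%) and neither by 67 (13.6%). These are values as deposited, and those after correction for linked wells are given below. All intervals of shares given here cover counting error only. The median number of genes found was 4696.5 in cells with both programmes, 4448 with the S programme alone, 3937 with the mitotic programme alone and 3945 with neither, and its part in the shares was not tested.

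The mitotic programme was in every mesenchyme-like cell, 23 of 23 (interval 85.2 to 100%), in 104 of 139 otic epithelium-like cells (74.8%, 66.8 to 81.8) and in 92 of 129 neural tube progenitor-like cells (71.3%, 62.7 to 78.9). It was in 37 of 54 early neuroblast-like cells (68.5%, 54.4 to 80.5) and 25 of 38 surface ectoderm-like cells (65.8%, 48.6 to 80.4). The lowest shares were in differentiating neuron-like cells, 22 of 46 (47.8%, 32.9 to 63.1), and in cluster 1, 16 of 62 (25.8%, 15.5 to 38.5). The interval of cluster 1 overlapped that of the differentiating neuron-like cells and lay below those of the other 5 classes.

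The S programme followed nearly the same order, and its shares lay closer together. It was held by 132 of 139 otic epithelium-like cells, 22 of 23 mesenchyme-like cells (95.7%), 47 of 54 early neuroblast-like cells (87.0%), 112 of 129 neural tube progenitor-like cells (86.8%) and 32 of 38 surface ectoderm-like cells (84.2%). Differentiating neuron-like cells stood at 33 of 46 (71.7%, 56.5 to 84.0) and cluster 1 at 35 of 62 (56.5%, 43.3 to 69.0). The level of these shares depends on the limit set for a programme: with 6 or 12 of 18 genes in place of 9, the S share of cluster 1 was 87.1% or 40.3% and that of differentiating neuron-like cells 87.0% or 52.2%. The mitotic share of cluster 1 was then 45.2% or 16.1%, and it was 12.9% with a mean log2 level of at least 3 as the limit.

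**Figure D1:**
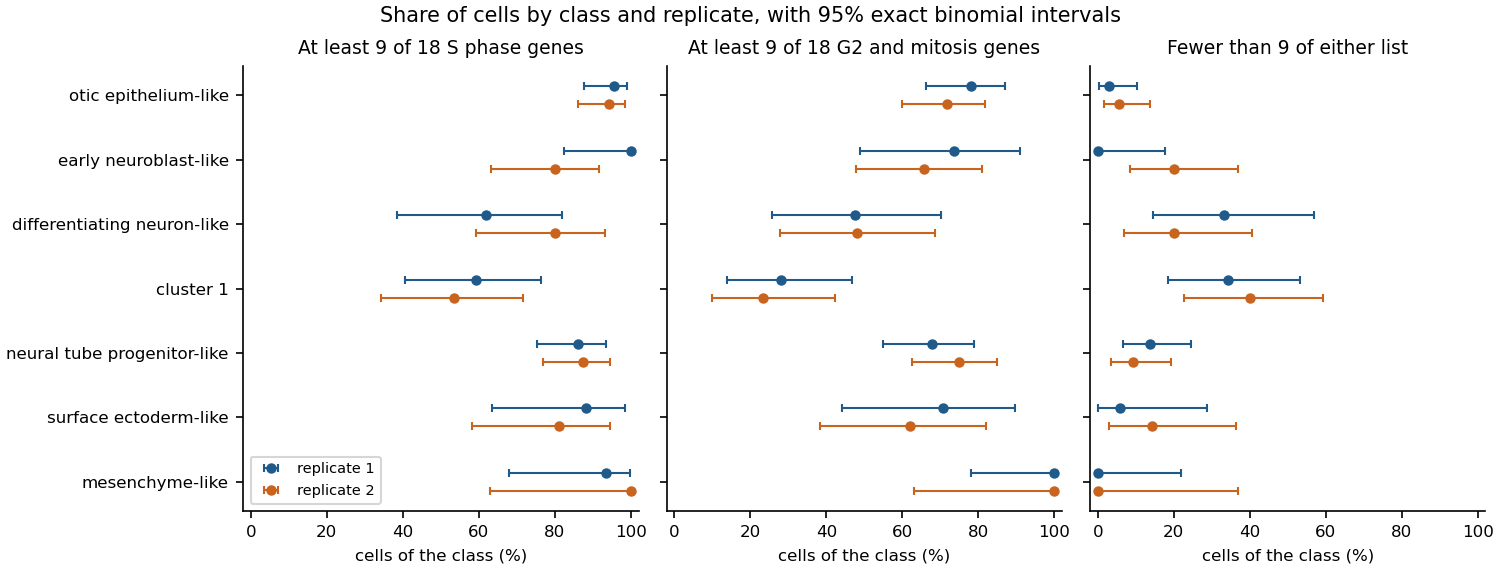
Share of the cells of each class, in percent, that held at least 9 of 18 S phase genes, at least 9 of 18 mitotic genes, or fewer than 9 of either, in replicate 1 and replicate 2. Points are shares and bars 95% exact binomial intervals, which overlapped between replicates in all 7 classes for each of the 3 panels; cluster 1 and the differentiating neuron-like cells stand lowest for the mitotic programme in both replicates.

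The shares of both replicates lay close together in the classes with most cells. In otic epithelium-like cells the mitotic programme was held by 53 of 68 cells of replicate 1 (77.9%) and 51 of 71 of replicate 2 (71.8%), and in neural tube progenitor-like cells by 44 of 65 (67.7%) and 48 of 64 (75.0%). Differentiating neuron-like cells had 10 of 21 (47.6%) and 12 of 25 (48.0%), and cluster 1 had 9 of 32 (28.1%) and 7 of 30 (23.3%). The S programme of early neuroblast-like cells varied more, with 19 of 19 cells in replicate 1 and 28 of 35 (80.0%) in replicate 2, and so did that of differentiating neuron-like cells, with 13 of 21 (61.9%) and 20 of 25 (80.0%). With 2 replicates no exact test of a share can reach 0.05, so differences between classes are given by replicate and plate.

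Compared with otic epithelium-like cells, the S programme share of differentiating neuron-like cells differed by -33.7 percentage points in replicate 1 and -14.4 in replicate 2, and was lower on 6 of 6 plates. Their mitotic programme share differed by -30.3 and -23.8 points, and was lower on 5 of 6 plates. The mitotic programme share of mesenchyme-like cells was higher than that of otic epithelium-like cells by 22.1 and 28.2 points, on 6 of 6 plates. In early neuroblast-like cells the S programme share differed from that of otic epithelium-like cells by 4.41 points in replicate 1 and -14.4 points in replicate 2. Their mitotic programme share differed by -4.26 and -6.12 points, and was lower on 4 of 6 plates. Compared with early neuroblast-like cells, the S programme share of differentiating neuron-like cells differed by -38.1 points in replicate 1 and 0 in replicate 2. It was lower on 4 of 6 plates. The mitotic programme share differed by -26.1 and -17.7 points, and was lower on 6 of 6 plates. The share with neither programme differed by 33.3 and 0 points, and was higher on 4 of 6 plates.

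With both replicates pooled, the share of cells with neither programme was highest in the neuronal classes. They were 23 of 62 cells of cluster 1 (37.1%, 25.2 to 50.3) and 12 of 46 differentiating neuron-like cells (26.1%, 14.3 to 41.1), against 6 of 139 otic epithelium-like cells (4.32%, 1.6 to 9.16) and 0 of 23 mesenchyme-like cells (an upper exact bound of 14.8%). Cells with both programmes ranged from 12 of 62 in cluster 1 (19.4%) to 22 of 23 in mesenchyme-like cells (95.7%), and 21 of 46 differentiating neuron-like cells (45.7%) held both. The mitotic programme without the S programme was the rarest state in all classes but the mesenchyme-like one, with 0 to 4 cells in a class.

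**Figure D2:**
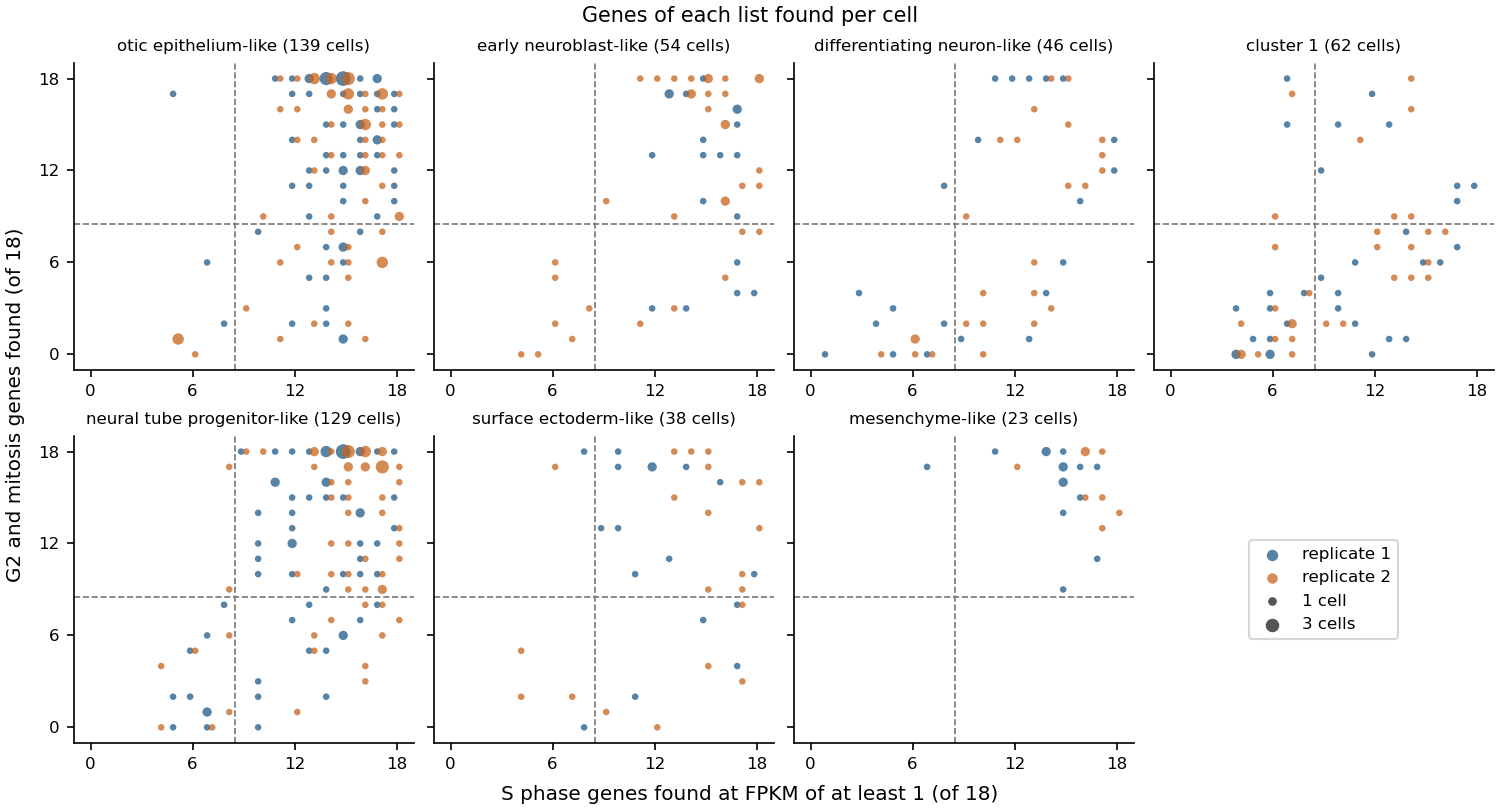
Number of mitotic genes found (vertical axis, of 18) against number of S phase genes found (horizontal axis, of 18) in each cell, with a panel per class, the point size giving the number of cells and dashed lines between 8 and 9 genes. The mesenchyme-like cells all lie above the horizontal line, while the differentiating neuron-like cells spread over cells low for both lists (12), high for the S phase list alone (12) and high for both (21).

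These shares depended on the treatment of the linked wells. The limit of 20% used next lies above the median shares across linked pairs (3.11% to 15%), so low values of a cell's own may also have been set to 0. With values under 20% of the linked well's value set to 0, the S programme was held by 18 of 46 differentiating neuron-like cells (39.1%) and 12 of 62 cells of cluster 1 (19.4%), and neither programme by 26 of 46 (56.5%) and 48 of 62 (77.4%). The S programme alone was then held by 2 of 46 differentiating neuron-like cells, against 12 of 46 as deposited. Over all 491 cells the S programme was then held by 345 (70.3%) and the mitotic programme by 261 (53.2%). Both were held by 239 (48.7%) and neither by 124 (25.3%). Early neuroblast-like cells had the mitotic programme in 29 of 54 (53.7%), and surface ectoderm-like cells the S programme in 25 of 38 (65.8%). Otic epithelium-like cells had the S programme in 126 of 139 (90.6%) and the mitotic programme in 89 of 139 (64.0%), and the mitotic programme was in 18 of 46 differentiating neuron-like cells (39.1%), 7 of 62 cells of cluster 1 and 18 of 38 surface ectoderm-like cells (47.4%). In the 173 cells with no linked source well, taken as deposited, the S programme was in 5 of 21 cells of cluster 1 (23.8%), 8 of 14 differentiating neuron-like cells (57.1%) and 43 of 49 otic epithelium-like cells (87.8%). Of the same cells, the mitotic programme was in 4 of 21, 8 of 14 and 33 of 49 (67.3%). It was in 9 of 15 early neuroblast-like cells (60.0%). In surface ectoderm-like cells it was in 6 of 14 (42.9%), a lower share than in differentiating neuron-like cells. Over all 173 cells the S programme was in 124 (71.7%), the mitotic programme in 98 (56.6%) and neither in 42 (24.3%).

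Single genes differed in how far they marked the states, which the counts themselves define, so the values are a description. Mcm2 was found in 99.0% of cells with both programmes, 97.1% with the S programme alone and 77.6% with neither, and Mcm7 in 71.6% of cells with neither. Cdc6 and E2f8 were found in 0 of the 67 cells with neither. Among the mitotic genes, Plk1, a kinase of mitotic entry and exit, was found in 73.1% of cells with both programmes and 4.76% of cells with the S programme alone, and Cenpf, a kinetochore protein, in 75.6% and 5.71%. Birc5 (97.4% and 54.3%) and Ccnb2, a B-type cyclin (86.7% and 53.3%), were still found in most cells with the S programme alone.

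The mean levels per class and replicate placed the same classes at both ends as the shares did. Mesenchyme-like cells had the highest mean of the 7 classes in both replicates for 15 of 18 mitotic genes, all but Cenpf, Tpx2 and Nusap1, and for 5 S phase genes (Mcm5, Rrm1, Rrm2, Ccne1 and Uhrf1). Cluster 1 had the lowest mean in both replicates for 17 of 18 mitotic genes, all but Aurka, a kinase of the spindle poles, and for 10 S phase genes. Differentiating neuron-like cells and cluster 1 both lay below the other 5 classes in both replicates for 14 S phase and 16 mitotic genes. E2f1, an activator of the S phase genes, was lowest in surface ectoderm-like cells (0.98 and 1.44), and Mcm2 was highest in neural tube progenitor-like cells.

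**Figure D3:**
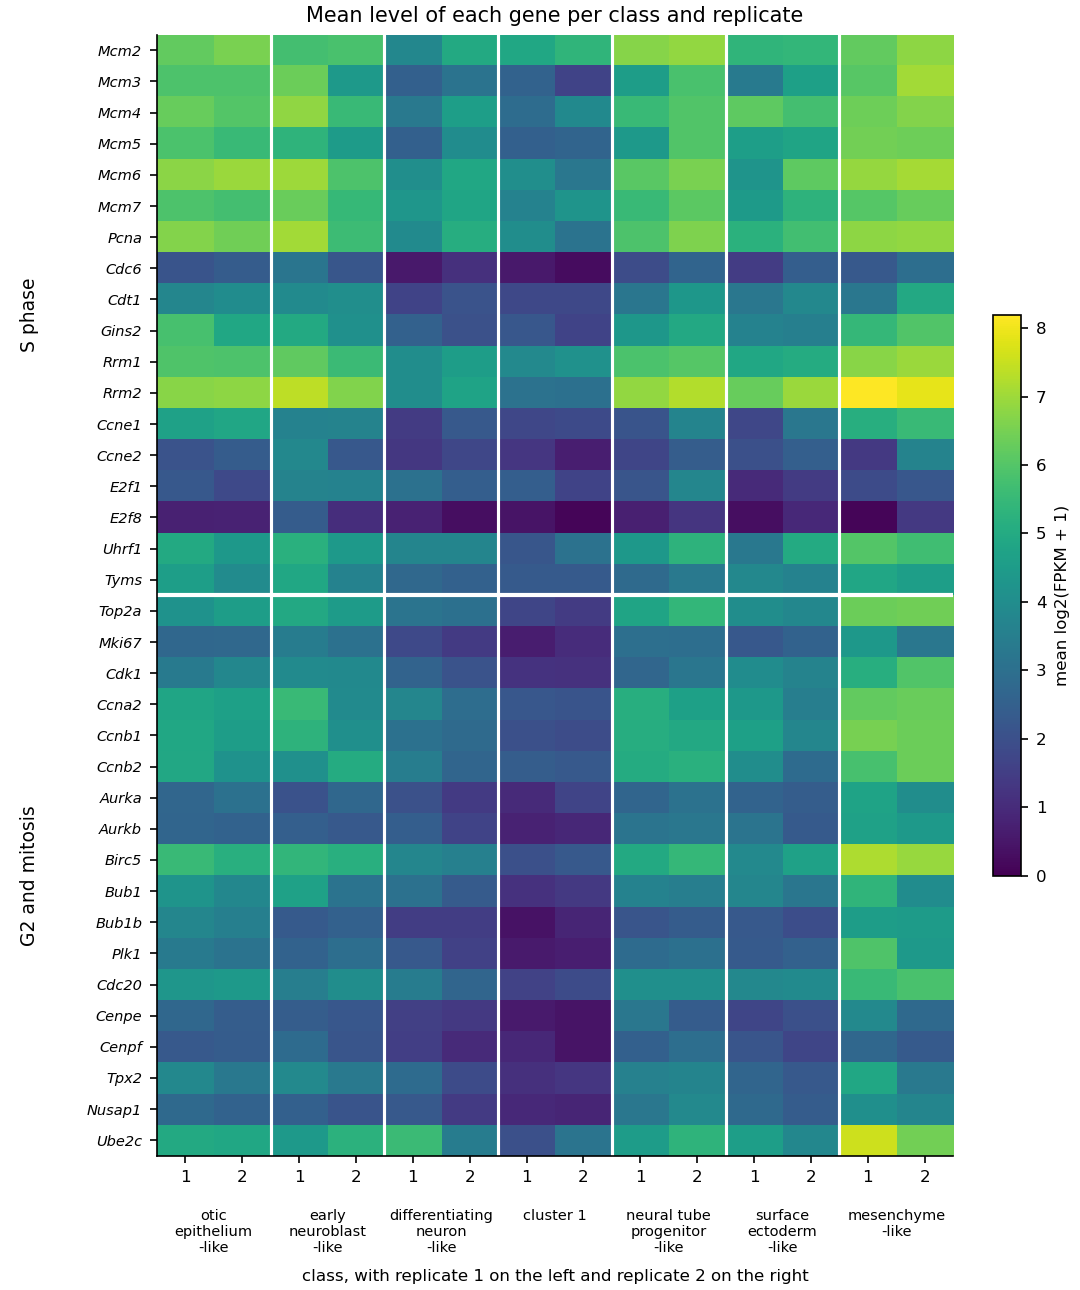
Mean log2(FPKM + 1) of the 36 genes (rows, S phase genes above the white line) in each of the 7 classes, with replicate 1 on the left and replicate 2 on the right of each pair of columns. The columns of differentiating neuron-like cells and cluster 1 are darker, which is lower, over most rows, and the columns of mesenchyme-like cells are brightest over most mitotic rows.

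Over the 36 genes, the means of both replicates were most alike in otic epithelium-like cells, with a Pearson correlation of 0.98, and least in differentiating neuron-like cells, with 0.80. The other 5 classes lay between 0.86 and 0.94. These correlations are across genes, which are not independent. No member was 1 or more apart between replicates in otic epithelium-like cells, where Gins2, a subunit of the GINS complex of the active helicase, differed most (5.80 and 4.89). The number was 10 in early neuroblast-like cells, led by Mcm3 (6.35 and 4.42), and 5 in differentiating neuron-like cells, led by Ube2c (5.6 and 3.44).

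The members moved between replicates more than genes at large in some classes. Their median absolute difference was 0.71 in early neuroblast-like cells against 0.34 over the 10194 genes tested, 0.62 against 0.31 in differentiating neuron-like cells, and 0.25 against 0.19 in otic epithelium-like cells. It was 0.49 against 0.22 in neural tube progenitor-like and 0.48 against 0.38 in surface ectoderm-like cells. In cluster 1 (0.29 against 0.30) and mesenchyme-like cells (0.38 against 0.46) it was not larger. By share of cells in which they were found, the members stand at percentiles 63.5 to 96.0 of all genes used, and the part of that in these values was not tested. In neural tube progenitor-like cells 31 of 36 members, among them all 18 S phase genes, were higher in replicate 2, with a median difference of 0.45 against 0.12 over all genes. The median number of genes found there was 3965 in replicate 1 and 4364.5 in replicate 2, and its part in this difference was not tested.

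Differentiating neuron-like cells had lower mean levels of both lists, taken over all cells whether or not a gene was found, than early neuroblast-like cells. The median share of cells with the gene found was 65.2% against 84.3% over the S phase genes and 45.7% against 67.6% over the mitotic genes. The median level where found was 5.35 against 6.33 for the S phase genes and 5.74 against 5.87 for the mitotic genes. All 36 members had a difference below 0, and 17 were called lower by limma at a Benjamini-Hochberg adjusted p below 0.05 (12 of 18 S phase and 5 of 18 mitotic genes), where 1.94% of all genes were called lower. None was called higher, where 4.03% of all genes were. The median difference was -1.50 over the members and -0.04 over all 10194 genes. Without the cells that had a linked source well, 1 of the 17 was still called and all 17 kept their direction, with a median of -2.06 over them, and 16 of the 17 were still called after the correction for linked wells. Of the 17, 7 were still called when FPKM was averaged before the logarithm, and 9, 8 and 8 when plate 3, 4 or 6 was left out.

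Rrm2 had the largest of these differences. Rrm2 (ENSMUSG00000020649, chr12:24708241-24714146), the small subunit of ribonucleotide reductase, ranged from 0.00 to 9.13 with a median of 5.06 in differentiating neuron-like cells, and from 0.00 to 9.85 with a median of 7.84 in early neuroblast-like cells. Its replicate means were 4.02 and 4.76 against 7.38 and 6.65, so the replicate means did not overlap although the cells did, a difference of -2.62 (SE 0.33, limma adjusted p 0.00014). The call held under all 16 other settings run for it. Gins2 had means of 2.53 and 2.03 against 4.96 and 4.12, a difference of -2.26 (SE 0.43, limma adjusted p 0.00479). Cdt1, which works with Cdc6 in loading the helicase, had 1.65 and 2.11 against 3.91 and 4.04, a difference of -2.10 (SE 0.45). Of the helicase subunits, Mcm3 (-2.56), Mcm4 (-2.25), Mcm6 (-1.98) and Mcm2 (-1.42) were called lower, and Mcm5 and Mcm7 were not.

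Pcna (-1.82), Cdc6 (-1.86), Ccne1, the E-type cyclin that drives entry into S phase (-1.80), Rrm1 (-1.59) and Tyms, thymidylate synthase (-1.60), were the other S phase genes called lower. The mitotic genes called lower were Ccnb1 (-1.75), Mki67, which coats mitotic chromosomes (-1.65), Birc5 (-1.63), Top2a, the topoisomerase that untangles chromosomes (-1.61), and Cdk1, the mitotic kinase (-1.55). Top2a had means of 3.15 and 3.04 against 4.93 and 4.48 (SE 0.37, limma adjusted p 0.017), with no overlap of replicates. Ube2c showed the least regular pattern, with 5.6 in replicate 1 and 3.44 in replicate 2 of the differentiating neuron-like cells.

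Of the other genes of these pathways, 6 of 27 other replication genes were lower (Prim1, Rpa2, Hells and Fen1 first) and 4 of 32 other mitotic genes (Hmgb2, Tacc3, Kif20a and Cks2), and none of either was higher. Among 12 tested genes of cell cycle exit and inhibition, Cdkn2d, an inhibitor of CDK4 and CDK6, was higher, with means of 3.4 and 4.80 against 1.57 and 2.18, a difference of 2.23 (SE 0.52, limma adjusted p 0.0176). The other 11 were not called.

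The comparison of differentiating neuron-like with otic epithelium-like cells, which shares the neuron group with the one just given, called 21 members lower and 0 higher, where 9.96% and 6.67% of all genes were called lower and higher. They were 14 S phase and 7 mitotic genes, and the median difference was -1.35 over the members and -0.14 over all genes. In the cells with no linked source well 3 of the 21 were still called and 20 kept their direction, the exception being Ccna2, the A-type cyclin, at 0.56.

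Mcm3 (ENSMUSG00000041859, chr1:20802968-20820312) had a median of 2.47 in differentiating neuron-like cells and of 6.4 in otic epithelium-like cells, and replicate means of 2.52 and 3.13 against 5.92 and 5.89. The difference was -3.08 (SE 0.63, limma adjusted p 0.00274). Gins2 (ENSMUSG00000031821, chr8:120578633-120589304, whose exons overlap Gse1 on the other strand) had 2.53 and 2.03 against 5.80 and 4.89, a difference of -3.06 (SE 0.43, limma adjusted p 0.000123). Ccne1 (ENSMUSG00000002068, chr7:38097984-38107534) was found in 39.1% of differentiating neuron-like and 77.0% of otic epithelium-like cells, with means of 1.42 and 2.29 against 4.68 and 4.84, a difference of -2.9 (SE 0.46, limma adjusted p 0.000357). In all 3 genes both neuron means lay below both otic means.

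Bub1b (ENSMUSG00000040084, chr2:118598211-118641591), a kinase-like protein of the spindle checkpoint, led the mitotic genes, with means of 1.48 and 1.49 against 3.76 and 3.52 and a difference of -2.16 (SE 0.38, limma adjusted p 0.00087). The calls of Gins2 and Bub1b held under all 16 other settings run. Ccnb1 (-1.78), Birc5 (-1.70), Ccnb2 (-1.47), Ccna2 (-1.39), Cdc20, an activator of the anaphase-promoting complex (-1.30), and Top2a (-1.26) were also called lower, although Top2a stood at 0.01 when FPKM was averaged before the logarithm. E2f1 was the single member with a difference above 0 and was not called. Among the other pathway genes, 13 of 27 replication genes (Hells, Rpa2, Tk1 and Chaf1b first) and 8 of 32 mitotic genes (Cdca8, Tacc3, Hmgb2 and Cdca3 first) were lower, and of the exit genes Gadd45g, a growth arrest gene (3.81), Btg2, an antiproliferative gene (2.33), Cdkn2d (2.11) and Rb1, the retinoblastoma protein (1.54), were higher.

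**Figure D4:**
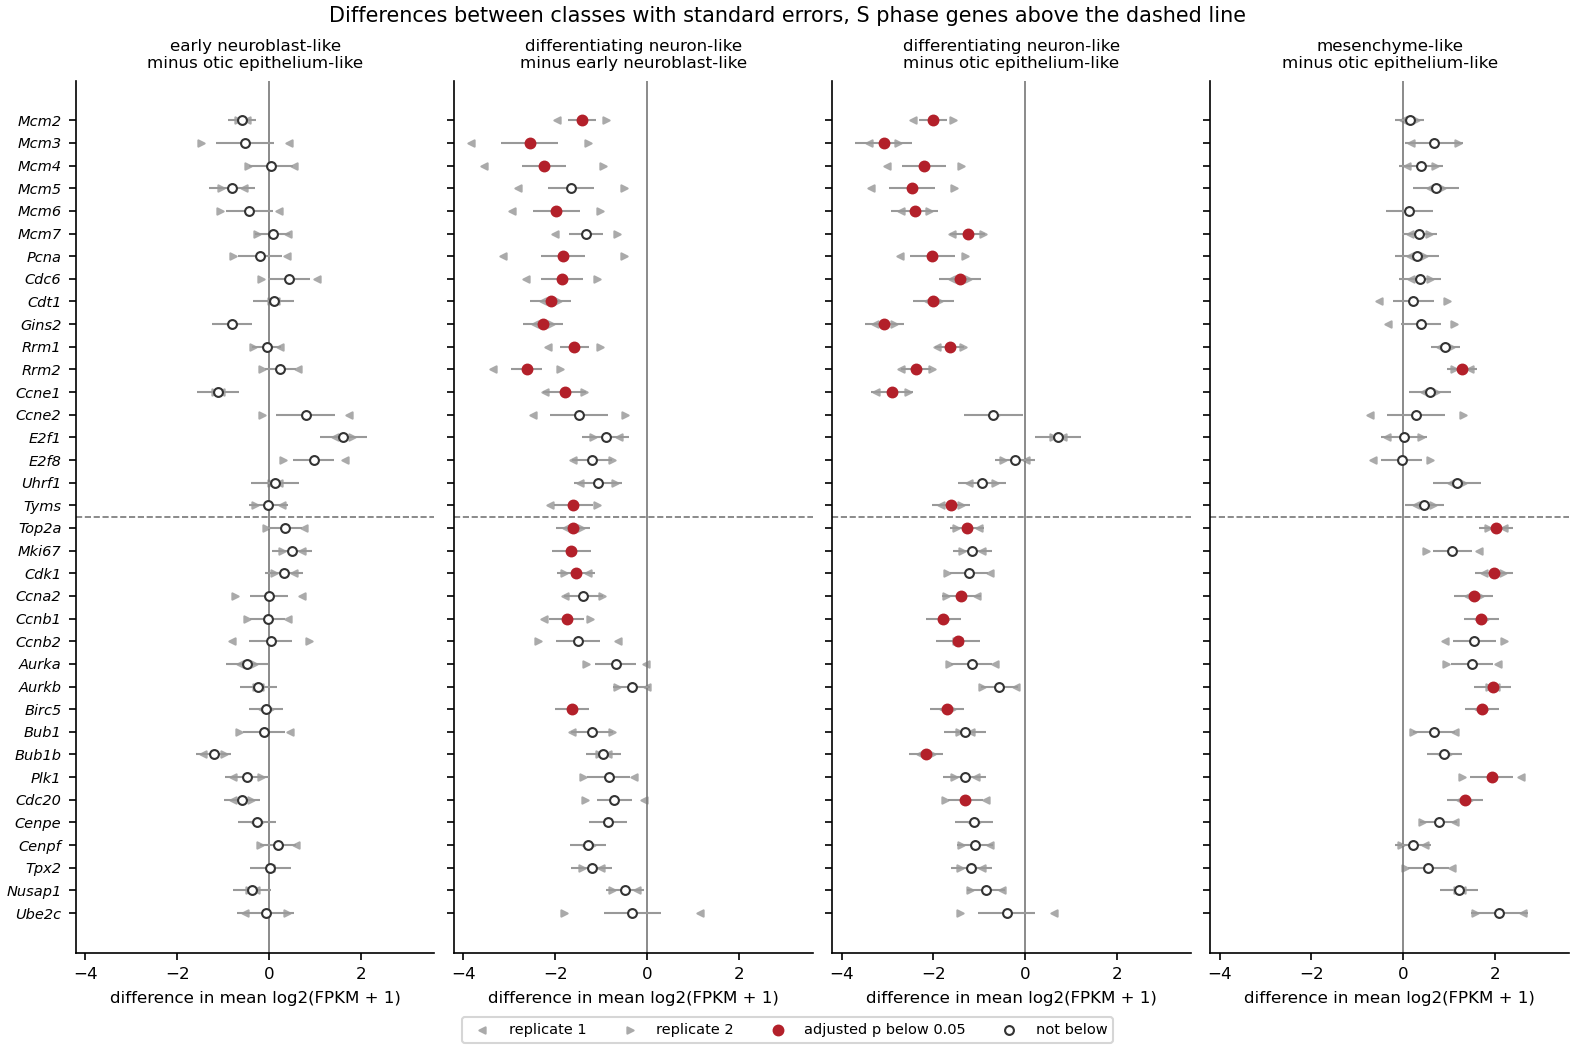
Difference in mean log2(FPKM + 1) for each of the 36 genes in 4 comparisons of classes, where circles are the fitted differences with their standard errors, filled where the limma adjusted p is below 0.05, and triangles are the differences within replicate 1 and replicate 2. Filled circles lie on the lower side in both neuron comparisons and on the higher side, mainly among mitotic genes, in mesenchyme-like cells, and no circle is filled for early neuroblast-like cells.

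Early neuroblast-like cells were not shown to differ from otic epithelium-like cells in any member. Limma called 0 of 36 in either direction (4 at an unadjusted p below 0.05), where 1.11% of all genes were called higher and 2.9% lower, and the median difference was -0.04 over the members and -0.10 over all genes. E2f1 had means of 3.67 and 3.62 against 2.24 and 1.82, a difference of 1.61 (SE 0.51, limma adjusted p 0.107) with the same sign on 6 of 6 plates. Bub1b had 2.33 and 2.54 against 3.76 and 3.52, a difference of -1.21 (SE 0.38, limma adjusted p 0.105), and Ccne1 had 3.64 and 3.67 against 4.68 and 4.84, a difference of -1.11 (limma adjusted p 0.271). In these 3 genes the replicate means of the classes did not overlap, and limma called 1 member lower without plate 5, although Ccne1 stood at 0.66 in cells with no linked source well. E2f8 had 2.4 and 1.08 against 0.76 and 0.78, a difference of 0.97 (limma adjusted p 0.321). Of the exit genes, Gadd45g was higher in early neuroblast-like cells, with 6.89 and 8.54 against 4.01 and 3.46, a difference of 3.98 (SE 0.57, limma adjusted p 0.000637), and so was Btg2, with 2.88 and 3.68 against 1.65 and 1.46, a difference of 1.73 (SE 0.44). Limma called 0 of 27 other replication genes (0 at an unadjusted p below 0.05) and 0 of 32 other mitotic genes (2 at an unadjusted p below 0.05).

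Mesenchyme-like cells had higher mean mitotic levels, taken over all cells whether or not a gene was found, than otic epithelium-like cells. Over the mitotic genes, the median share of cells with the gene found was 89.1% against 69.1%. The median level where found was 6.07 against 5.85. In all 9 members were called higher and 0 lower (17 at an unadjusted p below 0.05 in either direction), where 2.83% and 4.12% of all genes were called higher and lower. Of the 9, 8 were mitotic genes, and the median difference was 1.51 over the mitotic genes, 0.37 over the S phase genes and 0.06 over all genes. Top2a (ENSMUSG00000020914, chr11:98992943-99024189) ranged from 3.26 to 8.34 in the 23 mesenchyme-like cells, so that none lacked it, and from 0.00 to 8.77 in otic epithelium-like cells. Its means were 6.35 and 6.4 against 4.16 and 4.55, a difference of 2.02 (SE 0.37, limma adjusted p 0.00281). Cdk1 (1.97), Aurkb (1.95), Plk1 (1.92), Birc5 (1.70), Ccnb1 (1.70), Ccna2 (1.53) and Cdc20 (1.34) followed.

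Rrm2 was the S phase gene called higher, with 8.19 and 7.89 against 6.74 and 6.79, a difference of 1.27 (SE 0.33, limma adjusted p 0.0283). Ube2c had the widest difference, 2.09 (SE 0.62), and missed the threshold at a limma adjusted p of 0.0563. Kif20a, Kif2c, Pbk and Cks2, of 32 other mitotic genes, were also higher, limma called 0 of 27 other replication genes (6 at an unadjusted p below 0.05), and the cyclin-dependent kinase inhibitors Cdkn1a (-1.32) and Cdkn1c (-1.47) were lower. These calls rest on 15 and 8 mesenchyme-like cells, and none of the 9 was called when FPKM was averaged before the logarithm (median 0.60 over them), and 4, 4 and 5 of the 9 were when plate 1, 2 or 3 was left out. Mesenchyme-like cells also had the most genes found, 5215 against 4786 in otic epithelium-like cells, and the part of that in the difference was not tested.

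The remaining comparisons, which share the otic epithelium-like group with those above, called few members. Neural tube progenitor-like cells had 2 members lower and 0 higher (4.86% and 1.51% of all genes), Ccne1 with 2.12 and 3.70 against 4.68 and 4.84 (difference -1.85, SE 0.46, limma adjusted p 0.0227) and Bub1b with 2.17 and 2.37 against 3.76 and 3.52 (difference -1.37, SE 0.38, limma adjusted p 0.0407). Surface ectoderm-like cells had 3 members lower and 0 higher (3.03% and 2.02% of all genes), Ccne1 with 1.74 and 3.25 (difference -2.26, SE 0.46, limma adjusted p 0.00777), Gins2 with 3.63 and 3.55 (difference -1.75) and Bub1b with 2.27 and 1.95 (difference -1.53). The call of Ccne1 in surface ectoderm-like cells held under all 16 other settings. In neural tube progenitor-like cells leaving out plate 1, 2 or 6 ended both calls, and 1 remained without plate 3 or 4. Without plate 2, 4 or 6, 1 member was called lower in surface ectoderm-like cells, and 5 or 6 without plate 3 or 5. Btg2 was higher in neural tube progenitor-like than in otic epithelium-like cells (1.73), and Cdkn1a (-1.72) and Cdkn1c (-1.51) were lower. In surface ectoderm-like cells limma called none of the 12 exit genes (2 at an unadjusted p below 0.05). Of the other replication and mitotic genes limma called none in neural tube progenitor-like cells (1 of 27 and 3 of 32 at an unadjusted p below 0.05) and none in surface ectoderm-like cells (2 of 27 and 8 of 32).

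Within each of the 2 largest classes, genes of the same list were more alike from cell to cell than genes of different lists, by the median. Over all otic epithelium-like cells, the median Pearson correlation was 0.54 over the 153 pairs of mitotic genes, 0.28 over the 153 pairs of S phase genes and 0.03 over the 324 pairs between lists. Over the 129 neural tube progenitor-like cells the medians were 0.56, 0.34 and 0.12. These cells share plates and depth, which enter every pair, so the values are a description.

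Top2a and Cdk1 were the most alike in otic epithelium-like cells (r = 0.79), followed by Ccnb1 with Plk1 (0.73) and Ccnb1 with Ube2c (0.71). Ccnb1 had the highest median correlation with the rest of its list, 0.65 in otic epithelium-like and 0.66 in neural tube progenitor-like cells. Ccnb2 stood apart, with medians of 0.26 and 0.31 and its largest values in otic epithelium-like cells with Cdc20 and Bub1 (both 0.44). Rrm2 was the S phase gene most alike with the mitotic list, with a median of 0.33 in otic epithelium-like and 0.40 in neural tube progenitor-like cells, and its correlation with Ccna2 was 0.54. Mcm4 and Plk1 had the lowest value between lists, -0.27.

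**Figure D5:**
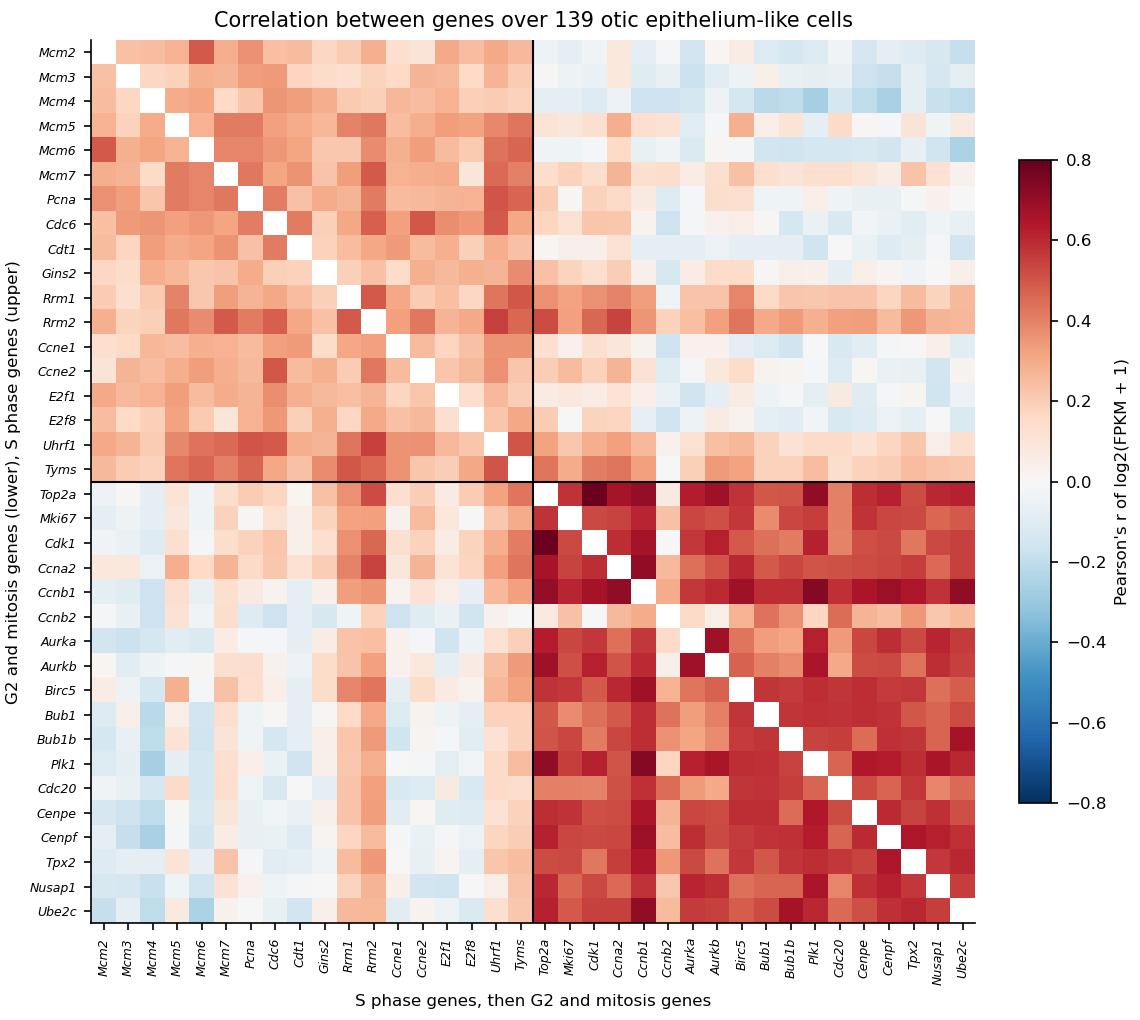
Pearson correlation of log2(FPKM + 1) between each pair of the 36 genes over 139 otic epithelium-like cells, with S phase genes first and mitotic genes after the black lines, red for values above 0 and blue for values below 0. The mitotic block is redder (median 0.54) than the S phase block (0.28), the region between them is near 0 (median 0.03), and the row of Ccnb2 is paler than the rest of its block.

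Over all 491 cells, the genes outside the lists whose levels followed the mean of the S phase genes most closely were Ranbp1 (r = 0.69), Atad2 (0.69), Nasp, a histone chaperone (0.66), Hells, a chromatin remodeller (0.66), and Siva1 (0.65). Those that followed the mean of the mitotic genes were the kinesin Kif20a (0.79), Cdca8, of the chromosomal passenger complex (0.78), Spc25, of the kinetochore (0.77), Prc1, of the spindle midzone (0.77), and the kinesin Kif2c (0.75). The cells share libraries, plates and depth, and differences between classes enter these values.

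Of the 36 genes, 10 have exons that overlap those of another gene in GENCODE M21, 2 of them (Mcm7 and Top2a) on the same strand, and pseudogenes are named after 4 (Pcna, Tyms, Ccnb1 and Ccnb2). Levels of these genes are uncertain to the extent that fragments were shared, since how such fragments were assigned is not stated in the sources used. Of the genes called lower in both neuron comparisons, Mcm3, Rrm2 and Ccne1 are among those with no overlapping gene and no named pseudogene.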

How the data were processed

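Each of the 491 samples is 1 cell, and the deposited table holds values that the authors made with TopHat, Bowtie, Bowtie2 and Cufflinks on build mm10 (FastQC, cutadapt and SAMtools are also named), per the submitters' processing notes, without versions. The deposited values were taken as log2(FPKM + 1), because the table is named for FPKM and 99.75% of values above 0 became numbers of 6 digits once the log2 was undone. No read counts were used, so depth in reads is unknown, and 0 of the table's columns were left out.

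Symbols and coordinates came from GENCODE M21. Cells were clustered on 61 marker genes (Leiden, resolution 1.0, scanpy 1.11.5, Python 3.11.15), and 7 classes by 2 replicates gave 14 means, which limma 3.58.1 (R 4.3.3) fitted with class and with the replicate as a block. Markers left out, 10194 genes with FPKM of at least 1 in 5% of cells were tested, and calls were made at a Benjamini-Hochberg adjusted p below 0.05 over all of them. The fit was tested on simulated data. The named genes are all 36 members, 3 lists of other cell cycle genes, and the 5 genes most like each list. The members and lists were chosen with earlier results of these data known. Shares carry 95% Clopper-Pearson intervals. Alternatives were the block, pseudocount, filter, scaling, weights, clustering resolution, averaging of FPKM, linked wells, cells with markers of another type, each plate and each replicate left out, and other limits for a programme. Each sample was taken as 1 sorted cell. No doublet caller was run, so whether a well held more than 1 cell was not tested.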

Additional observations from a re-analysis of the deposited data

How the results depend on the processing

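Of 52 member calls, 48 remained without the replicate block, 50 with upper-quartile scaling, 46 after correction for linked wells, 45 with a pseudocount of 0.1, 47 with weights by number of cells, 36 with no filter on low values, 20 with FPKM averaged before the logarithm (31 others ended and 1 turned its sign) and 31 to 35 without plate 1, 2, 3, 4 or 6. Without plate 5, which leaves mesenchyme-like cells out, 43 of 43 remained, and of 40 that could be fitted in cells with no linked source well 4 remained and 1 turned. The replicate block was used because the classes of a replicate share plates. Without it, the 9 members called higher in mesenchyme-like cells were not all called again. The count lower in differentiating neuron-like than in early neuroblast-like cells was then 16 (17 with it), and against otic epithelium-like cells 20 (21). In neural tube progenitor-like cells the count lower was 1 (2), and the other counts did not change. The first of these counts was 9 with averaged FPKM, 9 with no filter, 26 at resolution 1.5, 1 in cells with no linked source well and 8 to 19 with a plate left out; the second was 12 with averaged FPKM, 3 in cells with no linked source well and 14 to 29 with a plate left out. For early neuroblast-like against otic epithelium-like cells, where the counts were 0, weights gave 1 higher and 1 lower, resolution 1.5 gave 1 higher, and leaving out a plate gave 0 to 1 lower. For neural tube progenitor-like cells, weights gave 2 higher, and the count lower was 0 with averaged FPKM and in cells with no linked source well, 1 with a pseudocount of 0.1, no filter, resolution 0.5 or resolution 1.5, and 0 to 2 with a plate left out. For surface ectoderm-like cells the count lower (3) was 1 with averaged FPKM, 5 with weights, 1 at resolution 0.5 and 1 to 6 with a plate left out. For mesenchyme-like cells the count higher (9) was 0 with averaged FPKM, 14 at resolution 0.5 and 4 to 8 with a plate left out. The single values that turned were Ccne1, early neuroblast-like minus otic epithelium-like, to 0.66, Bub1, differentiating neuron-like minus early neuroblast-like, to 0.13, and Ccna2, differentiating neuron-like minus otic epithelium-like, to 0.56, in cells with no linked source well, and Top2a, differentiating neuron-like minus otic epithelium-like, to 0.0106 with averaged FPKM. The cause of these changes was not tested.

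In percentage points, S programme, differentiating neuron-like minus otic epithelium-like, the value was -23.2 as reported, -41.4 at an FPKM of 5, -10.2 with 6 and -37.0 with 12 of 18 members, -50.8 with a mean log2 of at least 3, -51.5 after correction for linked wells and -33.7 to -14.4 with a replicate left out. In percentage points, G2M programme, differentiating neuron-like minus otic epithelium-like, it was -27.0 as reported, -34.9 with 6 of 18 members, -10.2 in cells with no linked source well and -30.3 to -23.8 with a replicate left out. In percentage points, G2M programme, early neuroblast-like minus otic epithelium-like, it was -6.30 and became -11.1 with 6 of 18, -11.0 with 12 of 18, -4.77 with the mean, -4.53 in cells with 3500 to 5500 genes found, -10.3 after correction, -1.12 at resolution 1.5, -4.05 without cells with markers of another type (an alternative for shares chosen after seeing the data) and -6.12 to -4.26 with a replicate left out. Resolution 0.5 gave no early neuroblast-like or differentiating neuron-like class of its own, and surface ectoderm-like and mesenchyme-like cells with no linked source well were too few to fit, as were mesenchyme-like cells without plate 5.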

Other observations

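Genes outside the lists also varied between the states of neuronal cells. In differentiating neuron-like cells, Ccnd1, a D-type cyclin that was chosen after its values were seen, was found in 17 of 21 cells with both programmes (81.0%), 10 of 12 with the S programme alone (83.3%) and 3 of 12 with neither. Gadd45g was found in 95.2%, 100% and 75.0% of the same cells, and Cdkn2d in 81.0%, 91.7% and 58.3%. In cluster 1, Ccnd1 was found in 58.3%, 52.2% and 34.8%, Gadd45g in 91.7%, 91.3% and 78.3%, and Cdkn2d in 83.3%, 65.2% and 47.8%. Cdkn1c, an inhibitor of cyclin-dependent kinases, was found in 100% of the differentiating neuron-like cells of each of these states and in 100%, 100% and 95.7% of those of cluster 1. The median number of genes found was 4956, 4641 and 4455 in the states of differentiating neuron-like cells and 4517, 4709 and 3980 in those of cluster 1, and its part in these shares was not tested.

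The number of S phase genes found and the number of mitotic genes found had a Pearson correlation of 0.64 over 46 differentiating neuron-like cells, 0.32 over 139 otic epithelium-like cells and -0.30 over 23 mesenchyme-like cells. By rank (Spearman) the values were 0.65, 0.09 and -0.38. The number of S phase genes found also went with the number of all genes found, with Pearson values of 0.36 to 0.65 across the 7 classes. All of these are descriptions of cells that share plates and depth.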
